A study of Mus musculus with 9 samples.

Results

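Long noncoding RNAs held mainly in the nucleus were followed in cultured mouse cortical neurons, using 7 genes of the 54232 in the count files: Malat1, Neat1, Miat, Meg3, Rian, Mirg and Snhg11. They were selected on measured values, because 1 library, PA repeat 2, held high counts of them in an earlier look at the same data. Their level in that library is therefore described here and not tested. All 7 were found by symbol, and all 7 passed the low-count filter that left 15712 genes. The study grew wildtype CD1 cortical neurons and compared a control, called PDL in the library names, with a peptide amphiphile carrying IKVAV (PA) and with that amphiphile together with PEDOT-S-OH (PA + PS2). Each of the 3 groups had 3 libraries, numbered as repeats 1 to 3. IKVAV is a peptide sequence of laminin, peptide amphiphiles are molecules that assemble into fibres on which cells can grow, and PEDOT derivatives are conducting polymers. The labels give neither the age of the cultures nor the length of exposure, and they do not say whether repeats were separate cultures, so each p-value measures the spread between these libraries, which may be technical.

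These RNAs are not translated, apart from reported short reading frames in some. Malat1 gathers in nuclear speckles, which hold splicing factors, and Neat1 is the scaffold of paraspeckles, bodies that hold back RNA and RNA-binding proteins. Miat, also called Gomafu, sits in its own nuclear bodies in neurons and binds splicing factors. Meg3, Rian and Mirg are made from the maternal copy of the imprinted Dlk1-Dio3 region and may be read as parts of 1 long unit. Rian carries small nucleolar RNAs in its introns, Mirg carries a large cluster of microRNAs, and Snhg11 is a neuronal host gene of small nucleolar RNAs.

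In genome build mm10, Malat1 (ENSMUSG00000092341) lies at chr19:5795690-5802672 on the minus strand, and Neat1 (ENSMUSG00000092274) lies at chr19:5824708-5845478 on the same strand, 22.0 kb away. Miat (ENSMUSG00000097767) lies at chr5:112213228-112229395 on the minus strand. Meg3 (ENSMUSG00000021268) lies at chr12:109541001-109571726, Rian (ENSMUSG00000097451) at chr12:109603940-109661716 and Mirg (ENSMUSG00000097391) at chr12:109729764-109749460, all on the plus strand and within 208.5 kb. Snhg11 (ENSMUSG00000044349) lies at chr2:158375638-158386145 on the plus strand and is filed as protein coding in GENCODE M21, whereas RefSeq lists it as a long noncoding RNA.

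The 3′ ends of Malat1 and Neat1 are shown because they set these 2 neighbours apart from ordinary polyadenylated RNAs: both are cut by RNase P, and a triple helix of U-rich and A-rich stretches is known to protect the end. Capitals mark the U-rich runs TTTCTTTT and TTTGCTTT and the A-rich tract that ends in GCAAAA. Both stretches are written as the RNA strand in DNA letters, from GENCODE M21 transcripts, at chr19:5795982-5796091 for Malat1 and chr19:5824708-5824817 for Neat1.
Malat1 3′ end: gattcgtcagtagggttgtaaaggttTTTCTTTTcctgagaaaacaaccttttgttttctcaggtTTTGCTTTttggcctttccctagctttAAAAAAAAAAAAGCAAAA
Neat1 3′ end: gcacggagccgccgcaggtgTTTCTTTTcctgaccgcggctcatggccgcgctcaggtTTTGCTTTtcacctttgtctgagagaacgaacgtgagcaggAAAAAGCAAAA
Both hold the same 3 elements in the same order within 110 bases. On the transcript strand, AAAGCAAAA was found in 2.61% of the longest transcripts of 9566 other long noncoding genes, TTTCTTTT in 14.4% and TTTGCTTT in 6.64%.

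Miat is known for repeats of the motif TACTAAC, which resembles the branch point of introns and is bound by Sf1 and Qk. The longest transcript of Miat, 9163 bases long, held 6 copies on the transcript strand, more than any of the 9566 other long noncoding transcripts, among which 4 was the highest count and 3.7% had any copy. The densest stretch, bases 4932 to 5082 of the transcript and chr5:112217309-112217459 on the minus strand, is shown with ACTAAC in capitals.
Miat repeats: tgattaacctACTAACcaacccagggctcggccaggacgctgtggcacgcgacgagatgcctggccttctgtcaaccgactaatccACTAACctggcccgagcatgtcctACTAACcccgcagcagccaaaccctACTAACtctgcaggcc
Of the 4 marked copies in it, 3 are preceded by T and so hold the full motif.

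Start windows, 250 bases before to 50 after the annotated start, were taken from RefSeq (GRCm38.p6) for the members that had an entry, 6 of 7; Neat1 is named only. The window of Malat1 and the first of 2 for Meg3 are shown because these members have high levels per length and these windows hold a motif of the cAMP response element (CRE), TGACG, which occurs on either strand in 20.8% of 32851 start windows. Capitals mark TGACG or CGTCA in the Malat1 window at chr19:5802623-5802922 (minus strand). In the first Meg3 window at chr12:109540746-109541045 (plus strand), capitals mark the full CRE TGACGTCA, CCAAT and TATAAA on either strand.
Malat1 start: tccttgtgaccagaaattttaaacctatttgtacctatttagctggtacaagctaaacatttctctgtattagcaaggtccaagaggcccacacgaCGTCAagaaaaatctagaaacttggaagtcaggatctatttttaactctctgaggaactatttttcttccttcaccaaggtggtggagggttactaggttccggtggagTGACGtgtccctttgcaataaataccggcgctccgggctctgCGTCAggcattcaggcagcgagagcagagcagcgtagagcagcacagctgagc
Meg3 start: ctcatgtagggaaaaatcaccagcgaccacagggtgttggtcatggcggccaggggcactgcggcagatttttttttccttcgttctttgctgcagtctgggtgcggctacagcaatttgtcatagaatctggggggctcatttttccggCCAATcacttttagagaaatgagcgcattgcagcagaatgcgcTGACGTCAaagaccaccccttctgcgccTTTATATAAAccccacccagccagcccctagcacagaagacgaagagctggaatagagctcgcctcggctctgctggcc
The Malat1 window held 3 copies of the core. The first Meg3 window held the full palindrome, present in 1.79% of all windows, together with 1 CCAAT (37.4% of windows) and 2 TATAAA matches, which overlap on opposite strands (13.6%). RefSeq gives Meg3 another start window, at chr12:109545148-109545447, which held none of the motifs searched. The Miat window held 1 GC box, GGGCGG, found in 35.7% of windows, and was 64.3% G or C against a median of 52.7%. The windows of Rian and Snhg11 held none of these motifs, and that of Mirg held a single CCAAT. These are matches of letters and say nothing of which factor acted.

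Mirg spans 14 hairpins in RefSeq that give 26 mature microRNAs with 25 different seeds. A few are shown, with the seed (bases 2 to 8) in capitals, because they are what Mirg is known for: miR-134 and miR-382 have been studied in neurons, miR-410 lies near the far end of the cluster, and miR-453 and miR-496a-5p are the pair that shares a seed.
mmu-miR-382-5p: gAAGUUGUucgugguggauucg
mmu-miR-134-5p: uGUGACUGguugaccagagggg
mmu-miR-453: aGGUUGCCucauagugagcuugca
mmu-miR-496a-5p: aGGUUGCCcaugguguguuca
mmu-miR-410-3p: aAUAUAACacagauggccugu
The libraries do not measure these mature forms: microRNA genes inside Mirg summed to 159 reads over all 9 libraries, against 3330 reads for Mirg itself. Rian spans 3 hairpins and Meg3 1.

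The libraries held 20746851 to 27237398 counted reads. Levels are CPM, the reads of a gene scaled to library sizes that were adjusted for composition by the trimmed mean of M values. The neuron markers summed to 5400 to 6554 CPM with none at 0, with Tubb3 from 1781 to 3069 CPM and Map2 from 1767 to 2403 CPM. Markers of other cells were present at lower summed levels in every library: 160 to 264 CPM for astrocytes, 60.5 to 86.1 CPM for the oligodendrocyte lineage, 129 to 329 CPM for dividing progenitors, 11.6 to 190 CPM for fibroblast and mural cells, 3.35 to 8.22 CPM for microglia and 1.87 to 8.84 CPM for endothelial cells. Libraries were alike across genes, with Pearson correlations of log2 CPM from 0.973 to 0.99. PA repeat 2 stood apart in having 24702 genes with a count, against 22064 to 23223 in the other 8.

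Divided by the joined length of all annotated exons of each gene, Meg3 was the most abundant of the 7, at 62.7 ± 25.4 CPM per kb (SD, n = 9 libraries). Malat1 followed at 43.4 ± 25.8 and Miat at 39.1 ± 14.1 CPM per kb. Meg3 was above Malat1 in 8 of 9 libraries, whereas Malat1 was above Miat in 4 of 9, so this pair had no fixed order. Rian came next at 14.2 ± 2.18 CPM per kb, below Miat in all 9 libraries. Mirg had 2.17 ± 0.806 and Snhg11 1.44 ± 0.376 CPM per kb, with Mirg the higher in 7 of 9. Neat1 was the lowest in all 9 libraries, at 0.0924 ± 0.0369 CPM per kb over the long isoform, and Malat1 exceeded it 296 to 679 times per kb depending on the library. Gene counts do not separate the short and long isoforms of Neat1.

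Malat1 stood at 237, 216 and 425 CPM in control repeats 1, 2 and 3. It stood at 212, 737 and 257 CPM in the PA repeats and at 272, 241 and 132 CPM in the PA + PS2 repeats. PA repeat 2 was the highest and PA + PS2 repeat 3 the lowest library, 5.61-fold apart, and the 3 groups overlapped. Control repeat 3 was the next highest, so the control group spread 1.96-fold by itself.

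Meg3, an imprinted RNA with reported roles in growth control, gave 1203, 1306 and 1024 CPM in the controls. It gave 863, 2040 and 813 CPM in PA and 1425, 1148 and 385 CPM in PA + PS2. The same libraries were the highest and the lowest as for Malat1, with a 5.30-fold span. The control libraries were close to each other (coefficient of variation 12.1%), and the PA and PA + PS2 groups were not (56.1% and 54.7%).

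Miat stood at 447, 426 and 292 CPM in the controls, 327, 568 and 242 CPM in PA, and 474, 362 and 135 CPM in PA + PS2. It followed Meg3 closely from library to library. Miat amounted to between 27.8% and 37.8% of the Meg3 CPM, a 1.36-fold range, while Meg3 itself ranged 5.30-fold and Miat 4.21-fold. In each group the repeats 3 were the lowest for Miat and for Meg3.

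Rian, the snoRNA-bearing neighbour of Meg3, varied least of the 7. It stood at 243, 282 and 283 CPM in the controls, 179, 317 and 240 CPM in PA, and 283, 259 and 237 CPM in PA + PS2. Its highest library was again PA repeat 2, but its lowest was PA repeat 1, and the span was 1.78-fold. The SD of its log2 CPM over the 9 libraries, 0.24, lay at percentile 55.3 of all tested genes, against percentiles 79.5 to 92.7 for the other 6. The ratio of Meg3 to Rian CPM consequently ran from 1.62 in PA + PS2 repeat 3 to 6.43 in PA repeat 2, with a median of 4.63.

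Mirg, the microRNA host at the far end of the same region, stood at 17.7, 21.6 and 10.2 CPM in the controls, 12.6, 22.5 and 9.51 CPM in PA, and 23.6, 15.9 and 8.61 CPM in PA + PS2. It was the only member for which PA repeat 2 was not the highest library, PA + PS2 repeat 1 being slightly above it. Repeats 3 were the lowest library of each group.

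Snhg11 stood at 12.9, 13.7 and 13.9 CPM in the controls, 8.82, 16.7 and 11.8 CPM in PA, and 14.1, 12.3 and 5.82 CPM in PA + PS2. Its controls differed least of any member (coefficient of variation 3.98%), and its extremes were PA repeat 2 and PA + PS2 repeat 3.

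Neat1 rested on few reads, 404 over the 9 libraries. It stood at 1.77, 2.17 and 2.49 CPM in the controls, 0.99, 3.31 and 1.13 CPM in PA, and 2.40, 1.89 and 1.12 CPM in PA + PS2. The exact Poisson 95% interval, which covers counting error only, was 2.62 to 4.12 CPM for the 79 reads of PA repeat 2 and 0.62 to 1.50 CPM for the 22 reads of PA repeat 1, its lowest library.

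**Figure D1:**
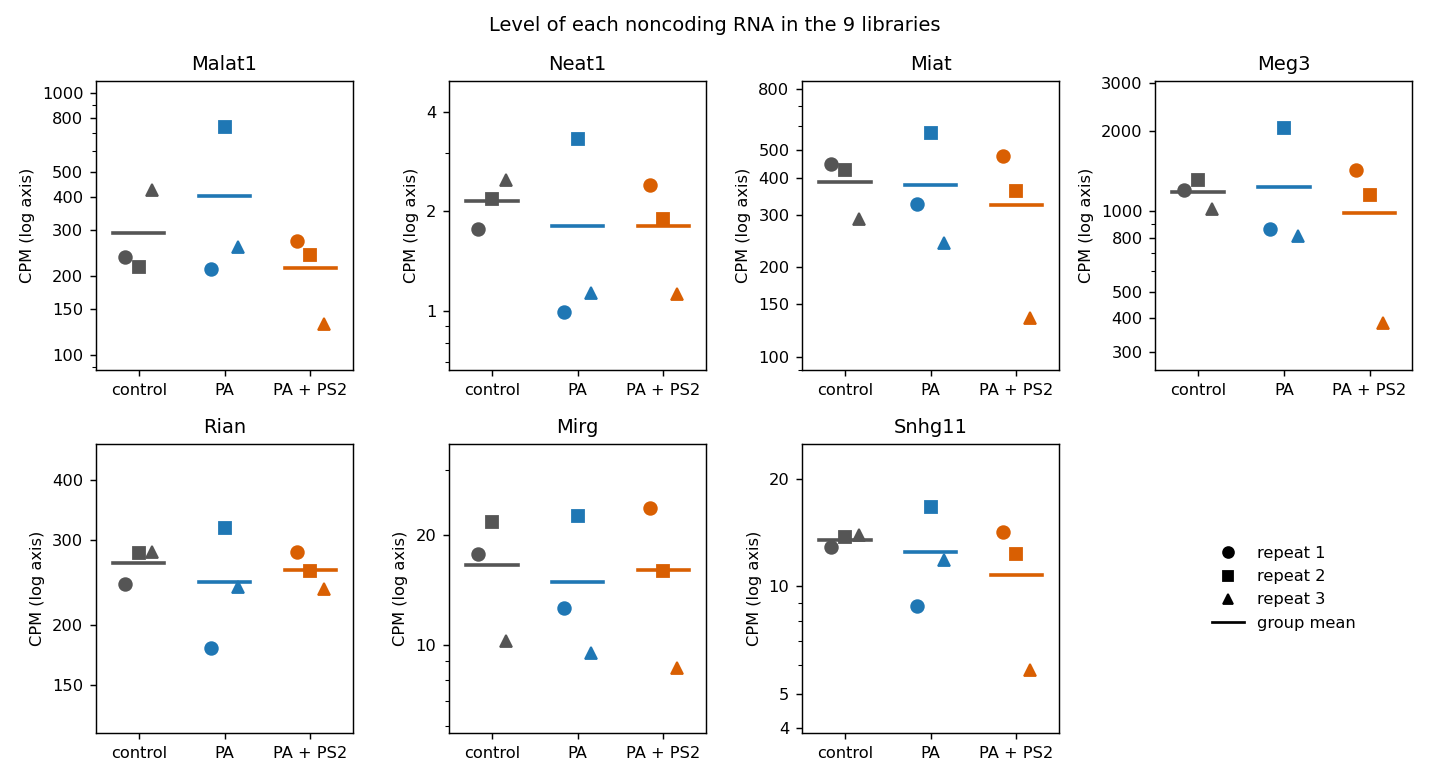
Level in CPM (log axis) of each of the 7 RNAs in the 3 libraries of each group; marker shape gives the repeat number and the line the group mean. PA repeat 2 is the top point of every panel but Mirg, and PA + PS2 repeat 3 is the bottom point of every panel but Neat1 and Rian.

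PA repeat 2 was the highest of the 9 libraries for 6 of the 7 members, all but Mirg. Over all 15712 genes it was the highest for 17.3%. Since the members were chosen for this library, the count is a description. Relative to the mean log2 CPM of PA repeats 1 and 3, Malat1 was 3.15-fold and Neat1 2.97-fold higher. The others were Meg3 at 2.44-fold, Mirg at 2.05-fold, Miat at 2.02-fold, Snhg11 at 1.63-fold and Rian at 1.53-fold. Against the mean of all other 8 libraries the folds were smaller, from 1.28 for Rian to 3.10 for Malat1.

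PA + PS2 repeat 3 stood at the other end. It was the lowest library for 5 of the 7, the exceptions being Neat1 and Rian, and for 14.5% of all genes. Relative to the mean log2 CPM of PA + PS2 repeats 1 and 2, Meg3 was at -1.73 and Miat at -1.62, Snhg11 at -1.17, Mirg at -1.16, Malat1 at -0.96 and Neat1 at -0.88, whereas Rian was at -0.19. The 4 members Malat1, Miat, Meg3 and Snhg11 had both extremes, which 5.61% of all genes had. Together the 7 made up 0.385% of the counts in PA repeat 2, 0.0882% in PA + PS2 repeat 3 and 0.154% to 0.25% in the other 7 libraries.

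**Figure D2:**
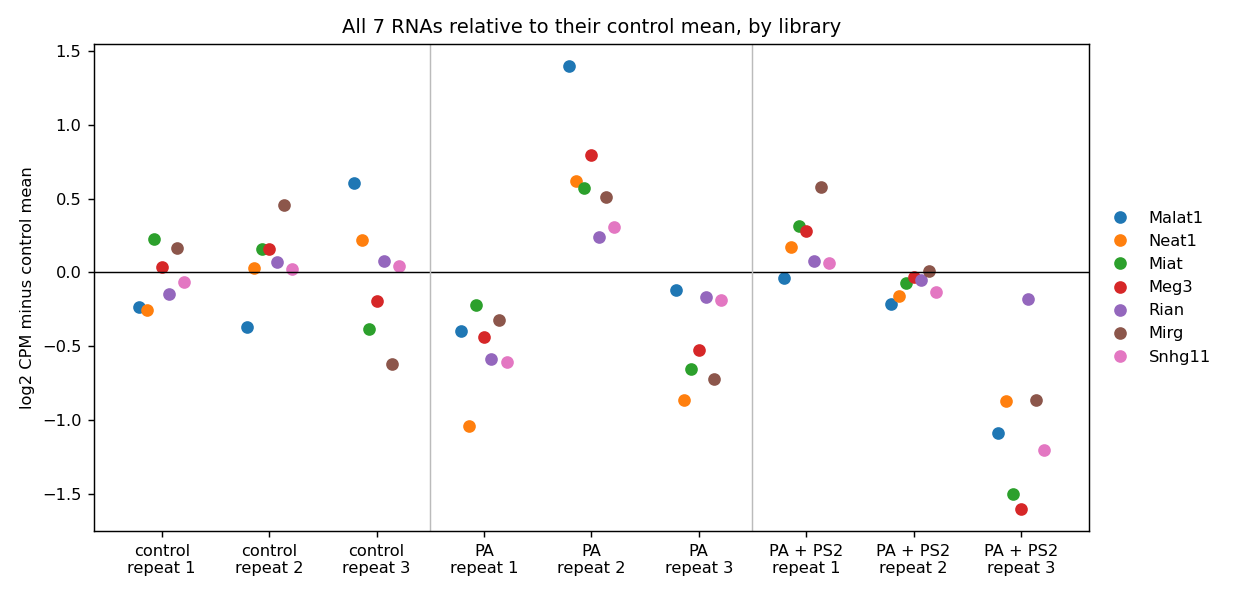
Log2 CPM of each RNA minus its mean over the 3 control libraries, for all 9 libraries; each dot is 1 RNA. All 7 dots lie above 0 in PA repeat 2 and below 0 in PA + PS2 repeat 3, where Rian stays closest to 0, and all 7 lie below 0 in PA repeats 1 and 3.

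No member passed the test between PA + PS2 and control. Set against the controls, PA + PS2 gave log2 fold changes of -0.45 ± 0.44 (SE) for Malat1, -0.33 ± 0.29 for Snhg11, -0.26 ± 0.39 for Miat and -0.26 ± 0.42 for Meg3. The values were -0.25 ± 0.45 for Neat1, -0.05 ± 0.17 for Rian and -0.05 ± 0.39 for Mirg. All 7 were negative, with a median of -0.26 against -0.00073 over all genes, and none passed in the quasi-likelihood test of edgeR (adjusted p 0.9998 for each, Benjamini-Hochberg), none at an unadjusted p under 0.05 and none by DESeq2. In that comparison 0.0446% of all genes passed, 7 of 15712. With the repeat number as a block 184 genes passed and still no member. The log2 fold changes were then -0.50 ± 0.41 for Malat1, -0.41 ± 0.30 for Meg3, -0.39 ± 0.22 for Miat and -0.37 ± 0.26 for Snhg11. They were -0.28 ± 0.41 for Neat1, -0.06 ± 0.21 for Mirg and -0.04 ± 0.14 for Rian. No member had groups that did not overlap, a state reached by 11.9% of all genes.

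Leaving out PA + PS2 repeat 3 turned 5 of the 7 values positive, and that of Mirg also turned without control repeat 1 (0.008) or control repeat 2 (0.21). Without PA + PS2 repeat 3, Mirg was at 0.26 ± 0.37, Meg3 at 0.13 ± 0.33, Miat at 0.11 ± 0.30, Rian at 0.01 ± 0.20 and Neat1 at 0.0025 ± 0.48 on the log2 scale, with Malat1 at -0.19 ± 0.46 and Snhg11 at -0.03 ± 0.23. The fit without any low-count filter gave Malat1 a log2 fold change of -0.44 ± 0.13 (edgeR adjusted p = 0.0455), the only member to pass under any of the settings tried in this comparison. Its value hardly moved, while its SE became smaller. In that fit 365 genes passed, against 7 with the filter. The SE was then 0.13 for Malat1, for Miat and for Rian alike, whereas with the filter it was 0.44, 0.39 and 0.17. The Malat1 call thus came with a spread that no longer differed between these members.

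PA against control is described without a test where PA repeat 2 takes part, because the members were chosen for it. The log2 fold changes were 0.46 ± 0.43 for Malat1, 0.07 ± 0.42 for Meg3, -0.04 ± 0.39 for Miat, -0.12 ± 0.29 for Snhg11, -0.14 ± 0.17 for Rian, -0.15 ± 0.39 for Mirg and -0.24 ± 0.45 for Neat1. With the repeat number as a block, Malat1 was at 0.28 ± 0.42, and Meg3 changed sign, to -0.04 ± 0.29. The others were then Miat at -0.09 ± 0.22, Snhg11 at -0.14 ± 0.26, Rian at -0.16 ± 0.14, Mirg at -0.15 ± 0.21 and Neat1 at -0.36 ± 0.41. Over all genes 0% passed by edgeR in this comparison and none by DESeq2, with 192 at an unadjusted p under 0.05, and groups did not overlap for 4.04% of genes and for none of the members.

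Without PA repeat 2, all 7 members lay below the controls. A choice of genes that stand high in PA repeat 2 can favour genes that are low in the other PA libraries. These values are therefore a description, and their p-values are not free of that choice. The members also vary together, so 7 of 7 is not 7 separate results. Neat1 was at -1.02 ± 0.37, Mirg at -0.59 ± 0.39, Meg3 at -0.50 ± 0.39, Miat at -0.46 ± 0.40, Snhg11 at -0.39 ± 0.31, Rian at -0.37 ± 0.14 and Malat1 at -0.32 ± 0.32 on the log2 scale. None passed in the edgeR test (adjusted p from 0.907 to 0.909). The share of genes passing was 0% of the 16030 tested, and 684 were at an unadjusted p under 0.05, among them the members Neat1 and Rian. Their median was -0.46 against -0.04 over all genes, of which 57.1% were below 0. For 4 members, Neat1, Meg3, Rian and Snhg11, both remaining PA libraries were below all 3 controls, as for 8.88% of genes. Malat1 and Neat1 are thus the members whose PA value depended most on the single library: Malat1 went from 0.46 to -0.32 and Neat1 from -0.24 to -1.02.

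PA + PS2 against PA shares the PA libraries and is given as a description also. Malat1 was at -0.91 ± 0.44, Meg3 at -0.33 ± 0.42, Miat at -0.23 ± 0.39, Snhg11 at -0.21 ± 0.29, Neat1 at -0.01 ± 0.45, Rian at 0.08 ± 0.17 and Mirg at 0.11 ± 0.39 on the log2 scale. Over all genes 0% passed by edgeR, with 881 at an unadjusted p under 0.05, and 121 genes passed by DESeq2. Groups did not overlap for 9.64% of genes and for no member. Without PA repeat 2 and PA + PS2 repeat 3, a setting chosen after seeing the data, all 7 were above 0, from 0.11 for Malat1 to 0.99 for Neat1. Leaving out PA repeat 2 alone also put Neat1 (0.78), Meg3 (0.25), Miat (0.21) and Snhg11 (0.07) above 0. So did leaving out PA + PS2 repeat 3 alone, at 0.25, 0.06, 0.14 and 0.09 in that order. Malat1 stayed below 0 in both, at -0.11 and -0.65.

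**Figure D3:**
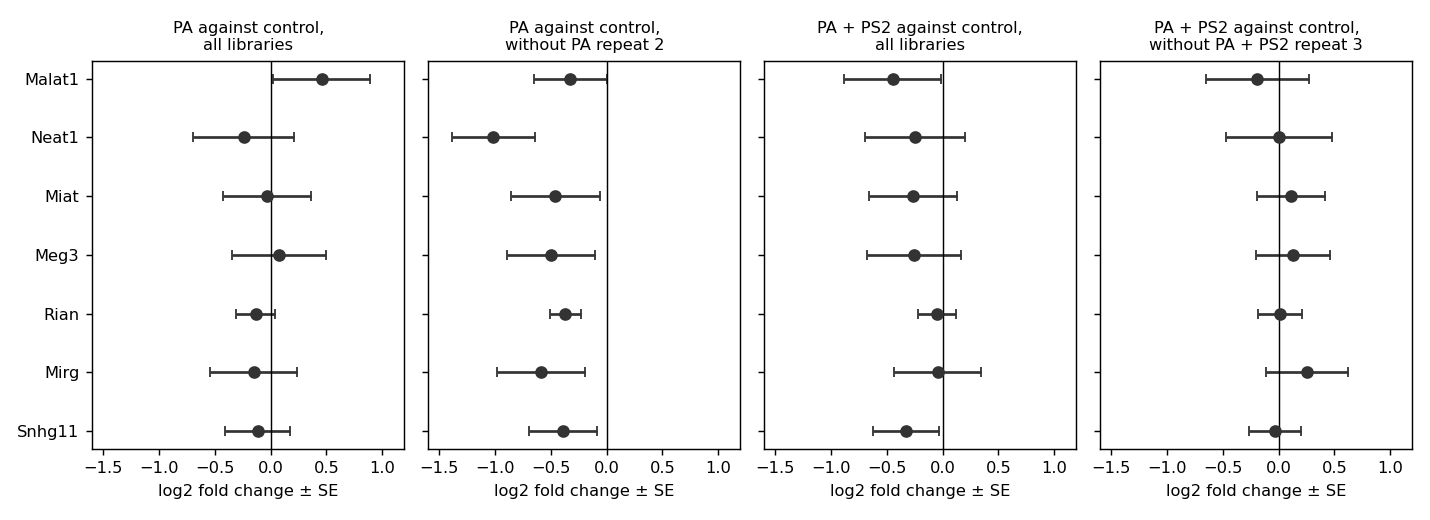
Log2 fold change with its standard error (bars) for each RNA in PA against control and PA + PS2 against control, with all libraries and with 1 library left out. Leaving out PA repeat 2 puts all 7 points below 0, and leaving out PA + PS2 repeat 3 brings the points of the last panel to between -0.19 and 0.26.

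The sign of the differences changed from repeat number to repeat number. In repeat 1 all 7 members were lower in PA than in control, from -0.16 for Malat1 to -0.79 for Neat1, and higher in PA + PS2 than in control, from 0.09 for Miat to 0.43 for Neat1 (log2 CPM). In repeat 2 all 7 were higher in PA, from 0.06 for Mirg to 1.77 for Malat1, and in PA + PS2 Malat1 was at 0.15 and the other 6 were below 0. In repeat 3 all 7 were lower in PA and lower in PA + PS2, where Malat1 was at -1.69 and Meg3 at -1.41 against -0.26 for Rian.

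The members varied together across libraries to different degrees. Over 9 libraries the Pearson correlation of log2 CPM between 2 members ran from 0.39 (Malat1 and Mirg) to 0.97 (Miat and Meg3), with a median of 0.76 over the 21 pairs. Without PA repeat 2 and PA + PS2 repeat 3 the median was 0.51. In those 7 libraries Meg3, Miat and Mirg still went together (0.90 to 0.96), as did Rian and Snhg11 (0.98) and Neat1 and Rian (0.90), while Malat1 with Miat was at -0.34 and with Mirg at -0.43. The libraries share depth and normalization, and these are descriptions.

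The genes whose pattern was most like that of each member, by Pearson correlation over the 9 libraries among 12069 candidates, were Nrbp2 (0.993), Leng8 (0.990) and Lrrc45 (0.988) for Miat. For Meg3 they were Hhipl1 (0.990), Safb2 (0.981) and Efcab8 (0.981), and for Rian they were Trmt13 (0.983), Clk1 (0.979), a kinase of splicing factors, and Mfn1 (0.974), a mitochondrial fusion protein. For Mirg they were Cpeb1 (0.977), which regulates polyadenylation in the cytoplasm, Amt (0.973) and Ccdc134 (0.969). For Snhg11 they were Fam227a (0.965), Spaca6 (0.953) and Pnisr (0.946). For Neat1 they were Fam173b (0.981), Ftx (0.958), a noncoding RNA of the X-inactivation centre, and Nsun6 (0.957), an RNA methyltransferase. For Malat1 they were Cplane1 (0.959), Fam149b (0.950) and Selenop (0.950).

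Other RNAs that stay in the nucleus or pass through it slowly were read from lists for the same 2 libraries. Genes known for transcripts with detained introns, which wait in the nucleus, were higher in PA repeat 2 than in PA repeats 1 and 3 for 10 of 10. Over all genes 8844 of 15712 were higher. The median was 0.69 on the log2 scale against 0.06 over all genes and 1.04 for the members. Against the mean of the other 8 libraries it was 0.44, beside 0.03 over all genes and 0.84 for the members. PA repeat 2 was the highest of the 9 libraries for 7 of the 10, beside 17.3% of all genes. Ogt, the O-GlcNAc transferase, stood at 357 CPM in PA repeat 2 against 213 and 296 CPM, and Nktr, a cyclophilin of the nucleus, at 252 CPM against 103 and 130 CPM. Rsrp1 stood at 255 CPM against 153 and 161 CPM, and Luc7l3, a splicing factor, at 191 CPM against 94.1 and 153 CPM. Outside the PA group, Ogt reached 358 CPM in control repeat 2 and 361 CPM in PA + PS2 repeat 1. Luc7l3 reached 192 CPM in control repeat 2. In PA + PS2 repeat 3 all 10 were below the mean of the other PA + PS2 libraries, beside 7725 of 15712 over all genes. Their median was -0.55 against 0.0044 over all genes.

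Spliced hosts of small nucleolar RNAs were higher in PA repeat 2 than in PA repeats 1 and 3 for 12 of 13 tested, with a median of 0.61. Over all genes this held for 8844 of 15712. Against the mean of the other 8 libraries the median was 0.44, and PA repeat 2 was the highest library for 6 of 13, beside 17.3% of all genes. In PA + PS2 repeat 1, Gas5 stood at 93.4 CPM and Snhg5 at 36.3 CPM, above PA repeat 2. The values that follow set PA repeat 2 against PA repeats 1 and 3. Gas5 stood at 92.7 CPM against 55.1 and 67.3 CPM, Snhg5 at 33.0 CPM against 18.4 and 22.5 CPM, Snhg17 at 30.2 CPM against 19.6 and 18.2 CPM, and Snhg1 at 25.3 CPM against 9.27 and 15.7 CPM. In PA + PS2 repeat 3, 12 of 13 were lower, with a median of -0.39, beside 7725 of 15712 over all genes. None of the 13 passed in any of the 3 group comparisons, as for nearly all genes. Over all genes 0% passed in PA against control, 0.0446% in PA + PS2 against control and 0% in PA + PS2 against PA.

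Other long noncoding RNAs of the nucleus or of imprinted loci were mixed, 8 of 11 being higher in PA repeat 2 than in PA repeats 1 and 3. Over all genes 8844 of 15712 were higher. The median of the 11 was 0.31. Xist, the RNA that coats the inactive X chromosome, stood at 1104 CPM against 726 and 1460 CPM, Peg13 at 521 CPM against 579 and 560 CPM, Tug1 at 188 CPM against 121 and 242 CPM, and Dlx6os1 at 134 CPM against 82.0 and 144 CPM. Kcnq1ot1, chosen here after its values were seen, was at 61.9 CPM in PA repeat 2 against 8.59 to 34.1 CPM elsewhere. In PA + PS2 repeat 3 the median of these 11 was 0.09, against -1.16 for the members.

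The protein partners of these RNAs had medians nearer to that of all genes. Over all genes 8844 of 15712 were above the mean of PA repeats 1 and 3, and PA repeat 2 was the highest library for 17.3%. Of 18 paraspeckle proteins, PA repeat 2 was the highest library for none, 12 were above the mean of PA repeats 1 and 3, and their median difference from it was 0.07. Sfpq stood at 459 CPM against 491 and 510 CPM, Matr3 at 482 CPM against 250 and 672 CPM, and Smarca4 at 698 CPM against 888 and 718 CPM. Of 4 splicing factors reported to bind Miat, PA repeat 2 was the highest for none and 2 were above PA repeats 1 and 3 (median -0.03), with Celf3 at 360 CPM against 431 and 328 CPM, Sf1 at 260 CPM against 315 and 288 CPM, Srsf1 at 256 CPM against 199 and 325 CPM, and Qk at 107 CPM against 74.8 and 114 CPM. Of 16 speckle proteins, PA repeat 2 was the highest library for 5, 13 were above the mean of PA repeats 1 and 3, and the median difference was 0.27. Srsf1 of the Miat list and Luc7l3 of the detained-intron list are also among these 16. Srrm2 was at 1132 CPM against 921 and 836 CPM, Son at 621 CPM against 472 and 533 CPM, Prpf8 at 536 CPM against 653 and 592 CPM, and Sf3b1 at 422 CPM against 252 and 401 CPM.

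Protein genes in or beside the Dlk1-Dio3 region had a median of -0.03 in PA repeat 2 against PA repeats 1 and 3, beside 1.28 for Meg3, 0.62 for Rian and 1.04 for Mirg, with 5 of 11 higher. Evl stood at 441 CPM against 604 and 479 CPM, Wars at 113 CPM against 150 and 129 CPM, Yy1 at 96.7 CPM against 101 and 102 CPM, and Begain at 55.7 CPM against 64.4 and 50.2 CPM. Rtl1, a paternally expressed gene of the region chosen here after its values were seen, was at 7.50 CPM against 2.61 and 1.65 CPM. Genes of nuclear RNA methylation, decay and export were higher for 11 of 12, with a median of 0.20, beside 8844 of 15712 over all genes. Against the mean of the other 8 libraries their median was 0.05. Nxf1 stood at 160 CPM against 155 and 143 CPM, and Exosc10 at 91.8 CPM against 107 and 89.1 CPM. Ythdc1 stood at 80.5 CPM against 55.2 and 84.6 CPM, and Mtrex at 78.3 CPM against 52.7 and 77.2 CPM.

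By annotated type, and leaving the members out, PA repeat 2 was the highest library for 28.8% of 445 lincRNAs, 33.3% of 433 antisense genes, 32.8% of 241 processed transcripts, 44.6% of 350 TEC genes (single transcripts of unsettled coding status) and 15.4% of 13419 protein-coding genes. The median log2 differences from PA repeats 1 and 3 were 0.42, 0.50, 0.39, 0.79 and 0.04 in the same order. In PA + PS2 repeat 3 the medians were -0.19, -0.24, -0.21, -0.46 and 0.01. TEC genes took 0.119% of counts in PA repeat 2, 0.0547% in PA + PS2 repeat 3 and 0.0572% to 0.0895% in the others. The counts of lincRNAs without the members took 0.427% in PA repeat 2 and 0.289% to 0.458% in the others. Such a sum leans on its most abundant genes. Xist alone ranged from 678 to 1717 CPM over the libraries, with 1104 CPM in PA repeat 2. The sum without Xist was not computed, so an excess among the remaining lincRNAs of PA repeat 2 was not tested. Sense-intronic genes stood at 0.0766% in PA repeat 2 against 0.0707% to 0.0814%.

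**Figure D4:**
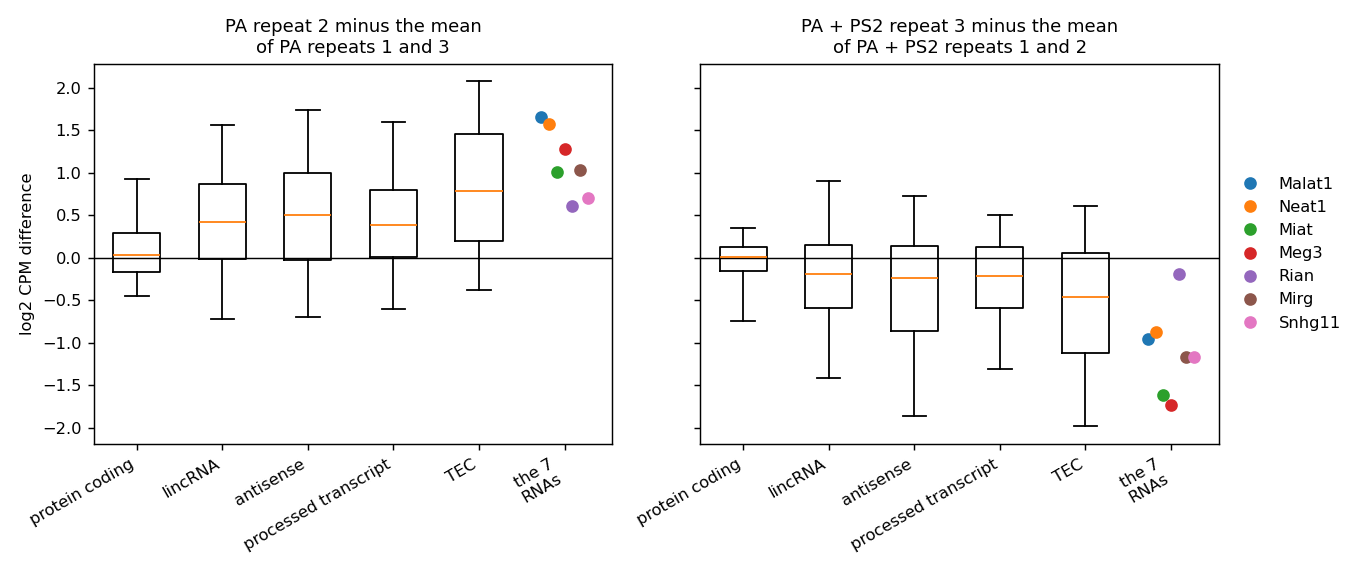
Log2 CPM difference of PA repeat 2 (left) and PA + PS2 repeat 3 (right) from the other libraries of their group, by gene type; boxes give the quartiles, whiskers the percentiles 5 and 95, and dots the 7 RNAs. TEC genes have the highest median box on the left (0.79) and the lowest on the right (-0.46), and Malat1 is the top dot on the left and Meg3 the bottom dot on the right.

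**Figure D5:**
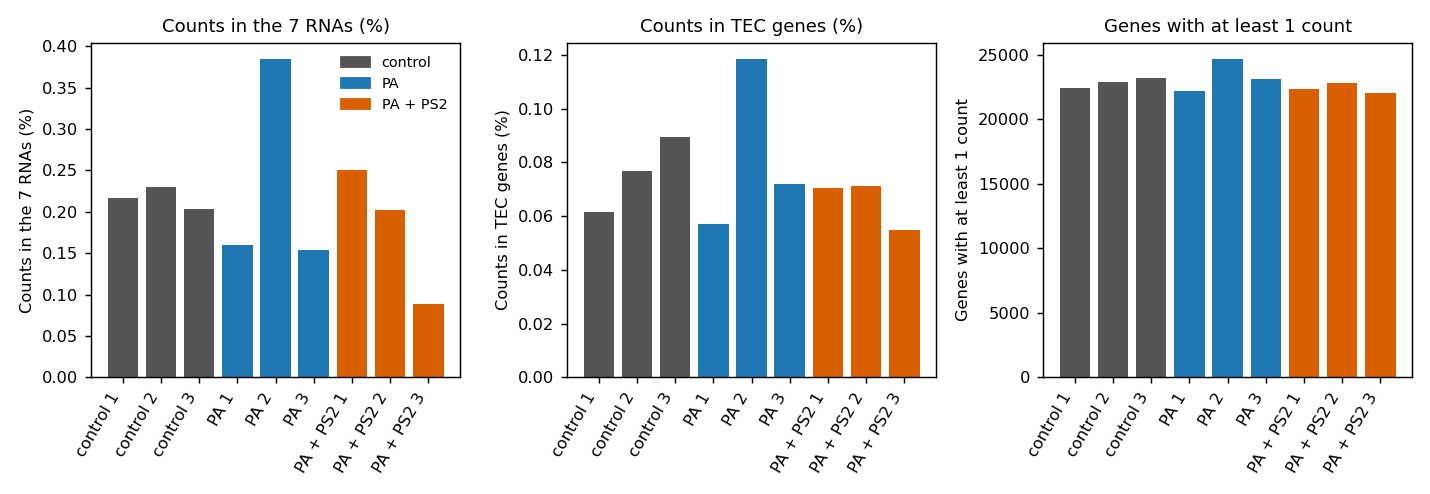
Share of all counts in the 7 RNAs, share in TEC genes, and number of genes with at least 1 count, by library, with bars coloured by group. PA repeat 2 is the tallest and PA + PS2 repeat 3 the shortest bar in all 3 panels.

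Markers of fibroblast and mural cells went the same way as the members in PA repeat 2 and PA + PS2 repeat 3, each set against its own group. They summed to 155 CPM in PA repeat 2 against 102 and 87.9 CPM in the other PA libraries, and to 11.6 CPM in PA + PS2 repeat 3 against 55.7 and 54.0 CPM, with 7 of 7 tested higher in the former and 7 of 7 lower in the latter. Over all genes 8844 of 15712 were higher in the former and 7725 lower in the latter. In the controls these markers summed to 132, 190 and 152 CPM, so PA repeat 2 was not the highest library. In PA + PS2 repeat 1 they went apart from the members, which summed to 2495 CPM, above every control, while the markers at 55.7 CPM were below every control. Acta2 stood at 63.5 CPM in PA repeat 2 against 65.5 and 53.0 CPM, Col1a1 at 38.9 CPM against 15.7 and 10.1 CPM, Col3a1 at 15.0 CPM against 5.98 and 6.84 CPM, and Rgs5 at 18.4 CPM against 4.05 and 7.14 CPM. Endothelial markers, of which 3 were tested, were higher in PA repeat 2 for 3 of 3 (median 0.60) and lower in PA + PS2 repeat 3 for 3 of 3 (median -1.07), at summed levels of 7.37 and 1.87 CPM. The share of counts in mitochondrial genes was 1.39% in PA repeat 2, against 0.342% and 1.08% in the other PA libraries and 1.34% in control repeat 3, and 0.868% in PA + PS2 repeat 3, against 0.786% and 0.837%. Neuron markers summed to 5400 CPM in PA repeat 2, their lowest value, against 6412 and 6554 CPM, and their median gene difference was -0.07. The part of these markers, of the mitochondrial share, of the number of genes detected and of the TEC share in the members' levels was not tested. In bulk RNA, fewer cells of a type and less RNA per cell cannot be told apart.

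Genes overlapping Mirg held 159 reads against 3330 for Mirg, those overlapping Rian 427 against 54785, those overlapping Miat 95 against 76797, those overlapping Meg3 2 against 239761 and those overlapping Snhg11 1 against 2596, and those overlapping Malat1 and Neat1 held 0. The labels do not say whether strand was used in counting or how shared reads were assigned, so the number of shared reads counted to a member was not tested. Small RNAs without a poly(A) tail were nearly absent. Of 9 such genes only Rn7sk, part of a complex that holds back transcription elongation, had enough reads. It stood at 1.84 to 7.31 CPM, with 6.62 CPM in PA repeat 2, and Rmrp, Rnu11 and Rnu12 had 0 reads in every library. All 9 are small RNAs, so they do not settle whether longer RNAs without a poly(A) tail were captured.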

How the data were processed

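RNA was sequenced from 9 libraries in 3 groups, assigned from the sample titles because the treatment label reads the same for all, controls included. The authors deposited raw counts per Ensembl gene, 1 table per library. Per the submitters' processing notes the tools were cutadapt 4.2, STAR 2.7.5, HTSeq 2.0.2 and DESeq2 1.14.1 with build mm10; settings, annotation and strand are not given in the sources used here. Per the labels' protocols a total RNA kit was used, whereas the molecule label reads polyA RNA, so it is open which RNAs were selected, which matters for RNAs with unusual 3′ ends.

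Symbols, positions and exon lengths came from GENCODE M21, which matched 54165 of 54232 identifiers. CPM here are counts over effective library sizes, the kept reads times the TMM factor (0.977 to 1.04), while shares of counts are over the unscaled totals. Differences between libraries used log2 CPM with a prior count of 2. Groups were compared in edgeR 4.0.16 with glmQLFit and glmQLFTest (R 4.3.3, TMM scaling, filterByExpr with a minimum count of 10 and minimum total of 15, 6 residual degrees of freedom), 2-sided, with Benjamini-Hochberg adjustment over all 15712 genes and a threshold of 0.05. DESeq2 1.42.0 was an alternative, with other scalings, filters, a replicate block, each library left out, and, chosen after seeing the data, PA repeat 2 and PA + PS2 repeat 3 left out together. The procedure was tested on simulated data. The common coefficient of variation between libraries was 16.6%.

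Same-numbered libraries deviated together, which comes from the data and not from the labels: correlations of deviations from group means were 0.42, 0.37 and 0.28 between PA and control and 0.18, 0.22 and 0.13 between PA + PS2 and control, which meets the criterion for pairs used here (every correlation over 0.1). The values printed come from the fit without the repeat number unless the block is named. Member values with the block are given for PA + PS2 against control and for PA against control, and the block is named where it moved a count of calls. The members and gene lists were chosen with earlier results of these data known. Named were the 7 members, the 4 most abundant genes of the lists described (1 of them is not reported here), and the 3 genes most correlated with each member (mean of at least 1 CPM); markers of astrocytes, oligodendrocytes, microglia, endothelial and dividing cells are given as sums.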

Additional observations from a re-analysis of the deposited data

How the results depend on the processing

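In PA + PS2 against control no member passed the threshold under any setting tried, except Malat1 without a low-count filter (edgeR adjusted p = 0.0455). In that setting 365 genes passed, against 7 in the main fit. The cause of the Malat1 call was not tested. Calls of members are not counted where PA repeat 2 is compared, since the members were chosen for that library. The number of genes passing moved more. For PA + PS2 against control it was 7, and 208 with DESeq2, 17 with DESeq2 size factors, 2 with total counts, 365 without the filter, 184 with the replicate block, 28 with only the 6 libraries compared, 2 with PA repeat 2 and PA + PS2 repeat 3 both left out, and 0 to 175 with each library left out in turn. For PA against control it was 0, and 23 without the filter, staying 0 with each library left out. For PA + PS2 against PA it was 0, and 121 with DESeq2, 330 without the filter, 57 with the replicate block and 0 to 37 with each library left out; the labels' numbers there do not pair the libraries by the criterion used, since 1 correlation of 3 was 0.015.

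Signs of the members were fragile in PA + PS2 against control. With each library left out in turn, the log2 fold change ran from -0.49 to 0.0025 for Neat1, -0.63 to 0.11 for Miat, -0.61 to 0.13 for Meg3, -0.12 to 0.011 for Rian and -0.42 to 0.26 for Mirg. The upper ends are all without PA + PS2 repeat 3, and Mirg was also above 0 without control repeat 1 (0.008) or 2 (0.21). With PA repeat 2 left out as well, Neat1 was at -0.0027, and values were 0.10 for Miat, 0.12 for Meg3, 0.0063 for Rian and 0.25 for Mirg. The replicate block changed no member's call. The differences of PA repeat 2 from the other libraries moved by at most 0.08 (log2) under other scalings and a prior count of 0.5. Depth limits Neat1, at 22 to 79 reads a library.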
